A study of Mus musculus with 2 samples.

Results

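The miR-200 family comprises the microRNAs (miRNAs) miR-200b, miR-200a, miR-429, miR-200c and miR-141. The deposited table of 281 mature miRNAs was searched for their 10 possible strand names, and 7 strands from all 5 hairpins were listed. These were the 5 strands from the 3′ side of each hairpin (3p) and, from the 5′ side (5p), miR-200b-5p and miR-200a-5p. The 5p strands of mir-429, mir-200c and mir-141 are not analysed here. The table places these 7 strands, and no other listed miRNA, in the miRNA family mir-8, the name of the fly relative.

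Small RNA was sequenced from the livers of C57BL/6 mice at 3 months of age, and each genotype, wild type and DICER1 mutant, gave 1 library. The mice model DICER1 syndrome, a human tumour predisposition. The labels name neither the variant nor the promoter or cell type in which it acts, and the column prefix hDICER1_Mut may refer to the human gene. The series text speaks of normal liver and liver cancer, whereas the sample labels call both samples liver and mention no tumour. With 1 library per genotype no p-value was computed, and the genotype, the animal and the library cannot be told apart.

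Dicer cuts miRNA hairpins into a 5p and a 3p strand, and 1 of them usually enters the Argonaute protein as the active guide. The seed, bases 2 to 8 of the mature strand, selects target messages. In mammals the miR-200 family is expressed in epithelial cells and represses Zeb1 and Zeb2, transcription factors that silence E-cadherin and drive the epithelial to mesenchymal transition. In the liver it is known mainly from bile duct epithelium, while hepatocytes hold little of it.

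The 5 hairpins lie in 2 clusters, each on the minus strand. The chromosome 4 cluster (mir-200b, mir-200a and mir-429) spans 1846 bases at chr4:156053905-156055750 of GRCm38 (mm10). All 3 hairpins lie in introns of Ttll10, and mir-429 also overlaps an exon of the noncoding gene Gm13648. The chromosome 6 cluster (mir-200c and mir-141) spans 477 bases at chr6:124717914-124718390 within an intron of the noncoding gene Gm15884, and mir-141 also overlaps an exon of Gm29008. The mature 3p strands are shown because their reads carry nearly all of the family's signal. Sequences are those of RefSeq on GRCm38.p6, which held all 10 strands, with the seed in capitals.
miR-200b-3p: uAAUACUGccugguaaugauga
miR-429-3p: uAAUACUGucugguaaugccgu
miR-200c-3p: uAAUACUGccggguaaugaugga
miR-200a-3p: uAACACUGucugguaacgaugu
miR-141-3p: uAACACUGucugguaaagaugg

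The 3p strands fell into 2 seed groups, 3 strands with AAUACUG and 2 with AACACUG. The seeds differ at 1 base, U4C from the first group to the second, counted from the 5′ end of the mature strand. Each cluster supplies both seeds. The most alike pairs stood in different clusters: miR-200b-3p and miR-200c-3p shared 20 of 22 compared bases, differing by U11G and A22G, and miR-200a-3p and miR-141-3p also shared 20, differing by C17A and U22G. The other 8 pairs differed at 4 or 5 bases. The sources used here do not say how the authors counted reads that fit several miRNAs.

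The listed 5p strands, shown because their hairpins allow the strands to be compared, had another seed in common, AUCUUAC.
miR-200b-5p: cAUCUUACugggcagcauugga
miR-200a-5p: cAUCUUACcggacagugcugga

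Dividing the deposited counts by the deposited RPM (reads scaled to a common library size) gave totals of 11432192 reads for the wild type and 18480608 for the mutant. At these depths 3 reads correspond to 0.262 and 0.162 RPM. The listed miRNAs took 81.8% and 61.2% of the reads. No listed miRNA had an absolute fold below 2 in the authors' deposited table. The scaling factors behind its normalized values make each mutant to wild-type ratio 2.38-fold smaller than RPM does. Ratios given on the authors' scale use RPM times these factors, without the 1 that the deposited log2 values add. By RPM, listed miRNAs with at least 10 reads were therefore either at least 4.78-fold higher in the mutant or at most 1.19-fold higher, so the size of a listed increase has a lower limit set by the listing. All intervals are 95% intervals that cover counting error only. The liver miRNA miR-122-5p was abundant in both libraries, at 14951 and 7303 RPM.

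The family was rare in the wild-type liver and far more abundant in the mutant liver. Its 7 strands together had 1867 reads in the wild type, or 163 RPM and 0.0163% of the library. In the mutant they had 82254 reads, or 4451 RPM and 0.445% of the library. The summed level was 27.3-fold higher in the mutant by RPM, with an interval of 26.0 to 28.5. All 7 strands were at least 2-fold higher with an interval that excluded equality, against 62.0% of the 276 listed miRNAs with at least 10 reads. Because of the listing limit, that share describes the table and not all miRNAs of the liver. The median log2 ratio was 4.78 over the 7 strands and 2.77 over the 276 miRNAs. In bulk tissue, more cells of a type and more of the miRNA per cell cannot be told apart.

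**Figure D1:**
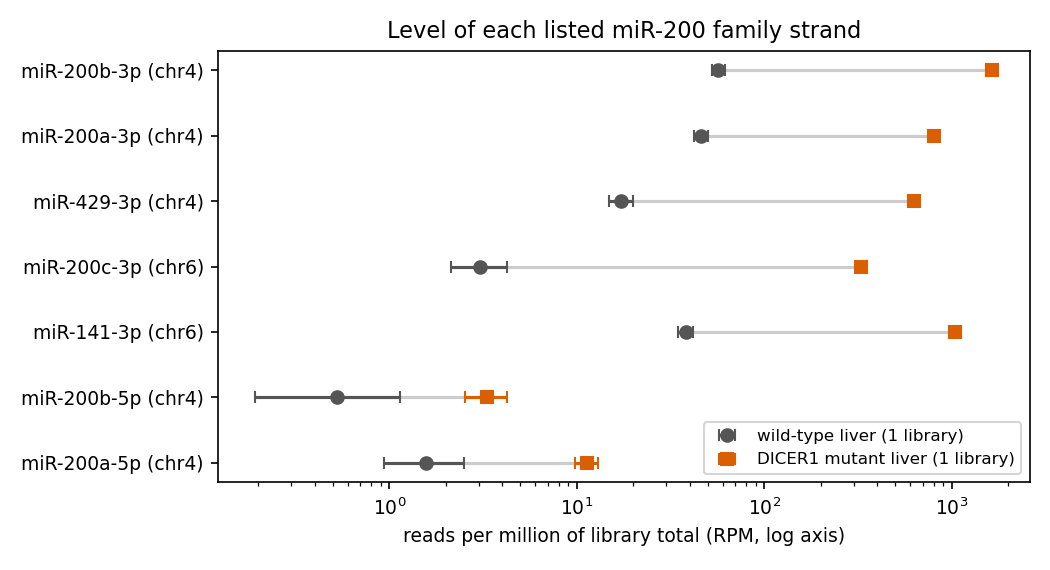
Level of each listed strand in RPM (log axis) in the wild-type library (circles) and the DICER1 mutant library (squares), with exact Poisson 95% intervals. The 3p strands lay between 3.06 and 56.9 RPM in the wild type and between 326 and 1637 RPM in the mutant, and no 5p strand exceeded 11.3 RPM.

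Of the chromosome 4 strands, miR-200b-3p was the most abundant of the family in both libraries, with 650 reads (56.9 RPM) in the wild type and 30251 reads (1637 RPM) in the mutant. Its level was 28.8-fold higher in the mutant (interval 26.6 to 31.2). miR-200a-3p had 526 reads (46.0 RPM) and 14760 reads (799 RPM). Its ratio was the smallest of the 3p strands, 17.4 (interval 15.9 to 19.0). The third strand of the cluster, miR-429-3p, had 197 reads (17.2 RPM) and 11622 reads (629 RPM), 36.5-fold higher (interval 31.7 to 42.2).

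Of the chromosome 6 strands, miR-141-3p had 435 reads (38.1 RPM) in the wild type and 19324 reads (1046 RPM) in the mutant, 27.5-fold higher (interval 25.0 to 30.3). miR-200c-3p was the rarest 3p strand in both libraries, with 35 reads (3.06 RPM) and 6027 reads (326 RPM). Its ratio of 107 was the largest of the family, and with 35 wild-type reads its interval was wide, 76.5 to 153. That interval did not overlap that of any other family strand.

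The 5p strands were scarce. miR-200a-5p had 18 reads (1.57 RPM) in the wild type and 209 reads (11.3 RPM) in the mutant, 7.18-fold higher (interval 4.43 to 12.4). miR-200b-5p had 6 reads (0.525 RPM) and 61 reads (3.30 RPM), 6.29-fold higher (interval 2.73 to 17.8). The interval of miR-200a-5p lay below those of all 3p strands, and that of miR-200b-5p overlapped the interval of miR-200a-3p.

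In the wild-type liver the levels by RPM ran from miR-200b-3p through miR-200a-3p, miR-141-3p, miR-429-3p and miR-200c-3p to miR-200a-5p and miR-200b-5p. The counting intervals of miR-200c-3p and miR-200a-5p overlapped, as did those of both 5p strands, and the other neighbours were separated. In the mutant liver miR-141-3p stood above miR-200a-3p and the order was otherwise the same, with no overlap between neighbours. The reference sequences of all 7 strands are 22 or 23 bases long, and an effect of length on these orders was not tested. The efficiency with which each sequence enters a library was not measured.

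The direction held on most scales. On the authors' scale the strand ratios ran from 2.64 to 44.7, and in the authors' deposited table miR-200c-3p has a fold of 44.6 and miR-200b-5p one of 2.62. With DESeq2 size factors computed on the listed rows, the 5 3p strands remained at least 2-fold higher, from 2.62 for miR-200a-3p to 16.1 for miR-200c-3p. The miRNA ranked 87 of the 276 by ratio stood at 1.97 on that scale, so at most 86 of the 276 reached 2-fold. On that scale the 5p strands were near equality, at 1.09 for miR-200a-5p and 0.951, turned lower, for miR-200b-5p. By construction those factors centre the listed rows near equality, although 171 of the 276 with at least 10 reads were called higher by RPM.

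**Figure D2:**
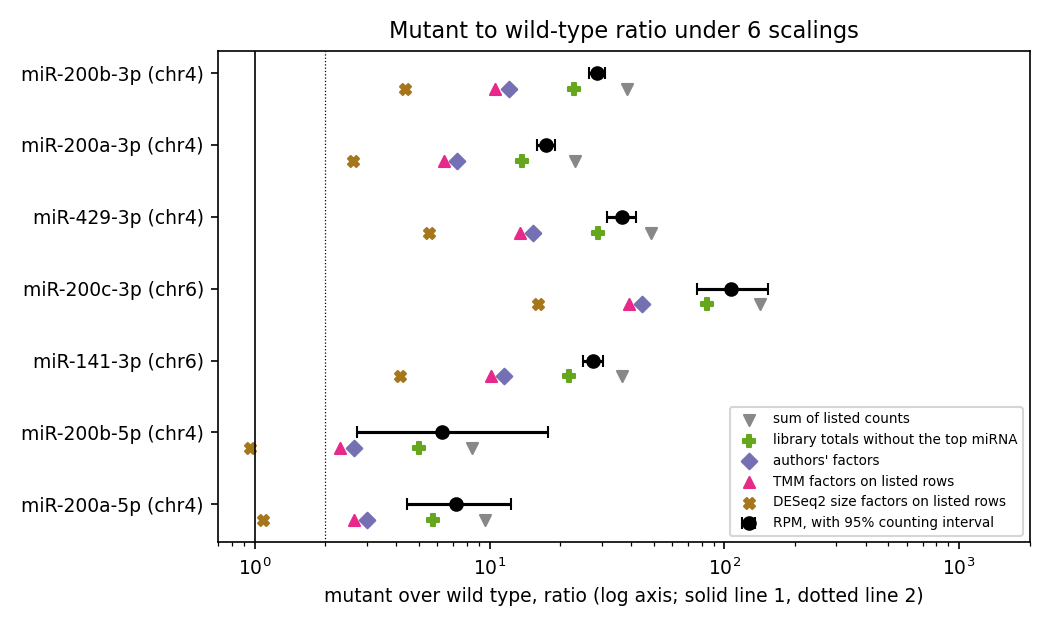
Mutant to wild-type ratio of each listed strand (log axis) by RPM, with its 95% counting interval, and under 5 other scalings below it. All 3p strands lie right of the dotted line at 2 on every scale, while miR-200b-5p falls to 0.951 and miR-200a-5p to 1.09 with DESeq2 size factors.

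Ratios between strands of 1 library need no scaling, and these were used to compare the clusters, the seed groups and the strands. The chromosome 4 cluster held 74.8% of the family's reads in the wild type (Clopper-Pearson interval 72.8 to 76.8) and 69.2% in the mutant (68.9 to 69.5). Its reads per chromosome 6 read went from 2.97 to 2.24, an odds ratio of 0.755 (interval 0.678 to 0.840). Summed by cluster, the increase was 25.2-fold on chromosome 4 (interval 23.9 to 26.6) and 33.4-fold on chromosome 6 (30.5 to 36.6). This difference depended on single strands, as seen by leaving out each in turn, an alternative chosen after the values were seen. The odds ratio was 0.917 without miR-200c-3p (interval 0.820 to 1.02) and 0.897 without miR-200a-3p (0.799 to 1.01), and both intervals included equality. Without miR-141-3p, which leaves miR-200c-3p alone for chromosome 6, it was 0.237 (0.164 to 0.331).

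Strands within each cluster moved by unequal amounts. On chromosome 6 there were 12.4 miR-141-3p reads for each miR-200c-3p read in the wild type and 3.21 in the mutant. The odds ratio of miR-200c-3p against miR-141-3p was 3.88 (interval 2.74 to 5.65). On chromosome 4, miR-200b-3p gained on miR-200a-3p, from 1.24 to 2.05 reads per read, an odds ratio of 1.66 (interval 1.47 to 1.87). miR-200a-3p lost ground to miR-429-3p, with an odds ratio of 0.476 (0.401 to 0.562). Of the 10 pairs of 3p strands compared, 9 had an interval that excluded equality. The exception crossed the clusters: miR-200b-3p against miR-141-3p had an odds ratio of 1.05 (interval 0.924 to 1.19).

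**Figure D3:**
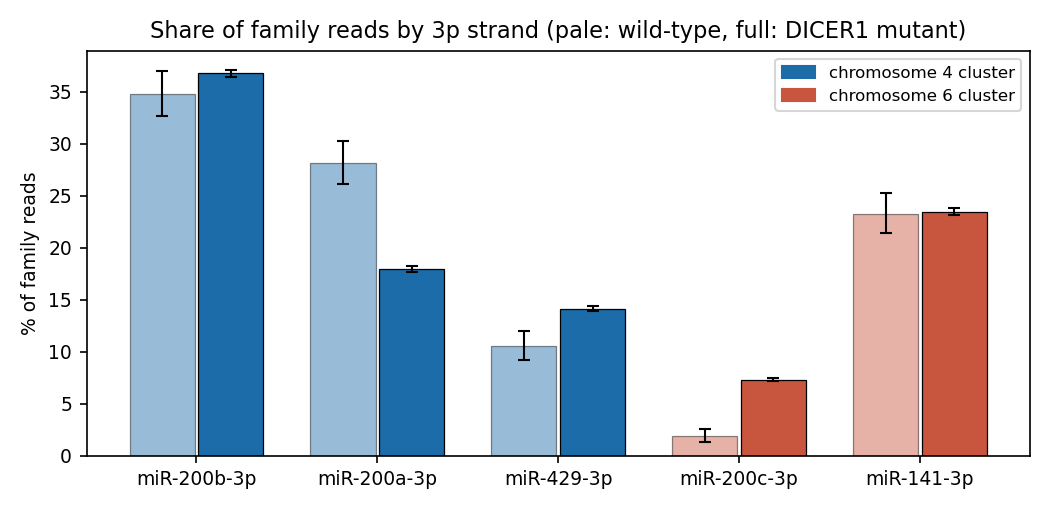
Share of the family's reads taken by each 3p strand, in percent, in the wild-type library (pale bars) and the DICER1 mutant library (full bars), with Clopper-Pearson 95% intervals. miR-200a-3p goes from 28.2% to 17.9% and miR-200c-3p from 1.87% to 7.33%, while miR-141-3p stands at 23.3% and 23.5%.

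The seed groups were nearly balanced in the wild type and not in the mutant. The AAUACUG group (miR-200b-3p, miR-429-3p and miR-200c-3p) made up 47.9% of 3p reads in the wild type (interval 45.6 to 50.2) and 58.4% in the mutant (58.1 to 58.8). Its odds ratio against the AACACUG group (miR-200a-3p and miR-141-3p) was 1.53 (interval 1.39 to 1.68). By RPM the first group was 33.6-fold higher (31.4 to 35.9) and the second 21.9-fold (20.6 to 23.4). The direction was the same in each cluster, with an odds ratio of 1.76 on chromosome 4 (1.57 to 1.97) and 3.88 on chromosome 6, where each group is a single strand. It was also the same without miR-200c-3p, at 1.39 (1.27 to 1.53). The comparison was not repeated without miR-200a-3p, the 3p strand with the smallest ratio. Against miR-141-3p alone the odds ratio was 1.05 for miR-200b-3p (0.924 to 1.19, including equality), 1.33 for miR-429-3p (1.12 to 1.58) and 3.88 for miR-200c-3p. In each pair of most alike strands the chromosome 6 strand gained on its chromosome 4 counterpart: miR-200b-3p against miR-200c-3p had an odds ratio of 0.270 (0.186 to 0.380) and miR-200a-3p against miR-141-3p one of 0.632 (0.554 to 0.720).

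The 3p strand dominated in both libraries, and more so in the mutant. Of the reads of mir-200a, 3.31% were 5p in the wild type (interval 1.97 to 5.18) and 1.40% in the mutant (1.21 to 1.60). For mir-200b the 5p share was 0.915% (0.336 to 1.98) and 0.201% (0.154 to 0.258). The odds ratio of 5p against 3p was 0.414 for mir-200a (interval 0.253 to 0.718) and 0.218 for mir-200b (0.0943 to 0.621), from 18 and 6 wild-type 5p reads. Both strands of each hairpin were higher in the mutant by RPM, the 5p strand by the smaller factor. The hairpins of these miRNAs are shown with both mature strands in capitals, the 5p strand first.
mir-200b: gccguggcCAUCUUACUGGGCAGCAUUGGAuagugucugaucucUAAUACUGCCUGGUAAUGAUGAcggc
mir-200a: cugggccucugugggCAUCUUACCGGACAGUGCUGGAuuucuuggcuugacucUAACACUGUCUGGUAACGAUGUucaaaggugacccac

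A lower 5p share in the mutant was common among listed hairpins. Of 62 hairpins with both strands listed and at least 10 reads per strand over both libraries, 49 had an odds ratio below 1. In 34 of these 49 the interval excluded equality. Numbered copies of 1 name, as for mir-26a and mir-29b, were summed. The near-identical mir-299a and mir-299b had the same wild-type counts, so the 62 are not all separate. In 3 hairpins, mir-29c, mir-199b and mir-582, the interval lay above 1. The 3p counts of mir-199b are identical to those of mir-199a, so its value is not a strand balance of that hairpin alone. That of mir-582 rests on 1 wild-type 5p read. Ordered from the lowest, mir-200b ranked 13 and mir-200a 23. The median odds ratio of the 62 was 0.710. Because both strands had to pass the listing, the 62 hairpins are not a sample of all hairpins.

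**Figure D4:**
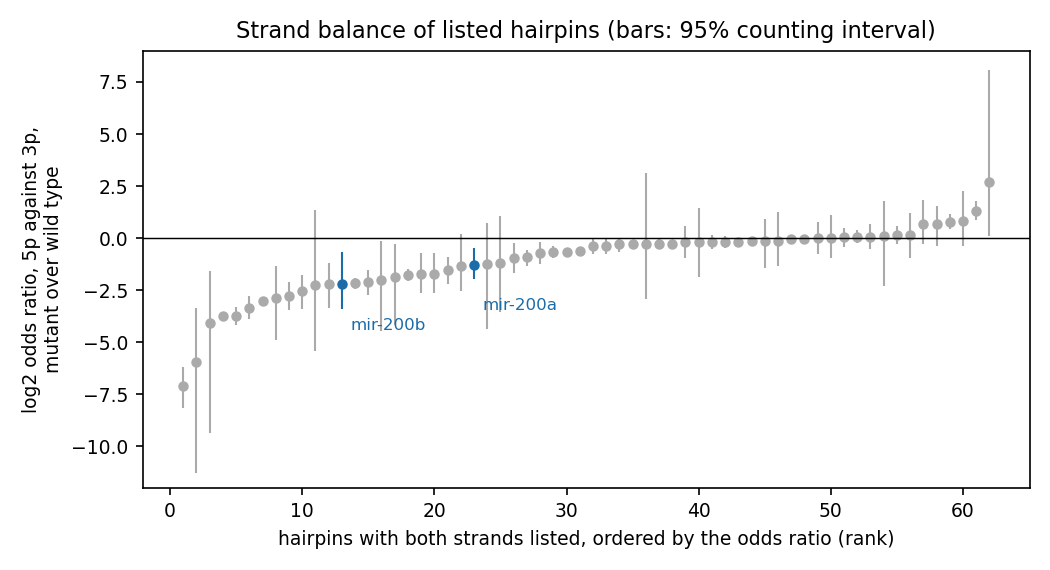
Log2 odds ratio of 5p against 3p reads, mutant over wild type, for 62 hairpins with both strands listed (numbered copies of a name summed), ordered by rank, with exact 95% counting intervals. The 2 family hairpins (blue) lie below 0, at -2.19 for mir-200b and -1.27 for mir-200a, among 49 hairpins below 0.

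Among the 276 listed miRNAs ranked by RPM, miR-200b-3p stood at 61 in the wild type and 27 in the mutant, and miR-200c-3p at 149 and 61. Ranked by ratio, miR-200c-3p was 12 of 276, miR-429-3p 34, miR-200b-3p 45, miR-141-3p 48 and miR-200a-3p 65, so larger ratios were not particular to the family. The 5p strands ranked 133 (miR-200a-5p) and 144 (miR-200b-5p). The 5 listed miRNAs with at least 100 reads whose ratio lay nearest to the 27.3 of the summed family were miR-20a-3p at 27.1, miR-495-3p at 26.9, miR-434-3p at 28.3, miR-376c-3p at 25.7 and miR-411-3p at 28.9. Likeness here is the distance between 2 ratios from 1 pair of libraries. Of these, miR-434-3p, with 507 reads (44.3 RPM) and 23225 reads (1257 RPM), had levels like those of the leading family strands, and the other 4 reached at most 65.8 RPM in the mutant.

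**Figure D5:**
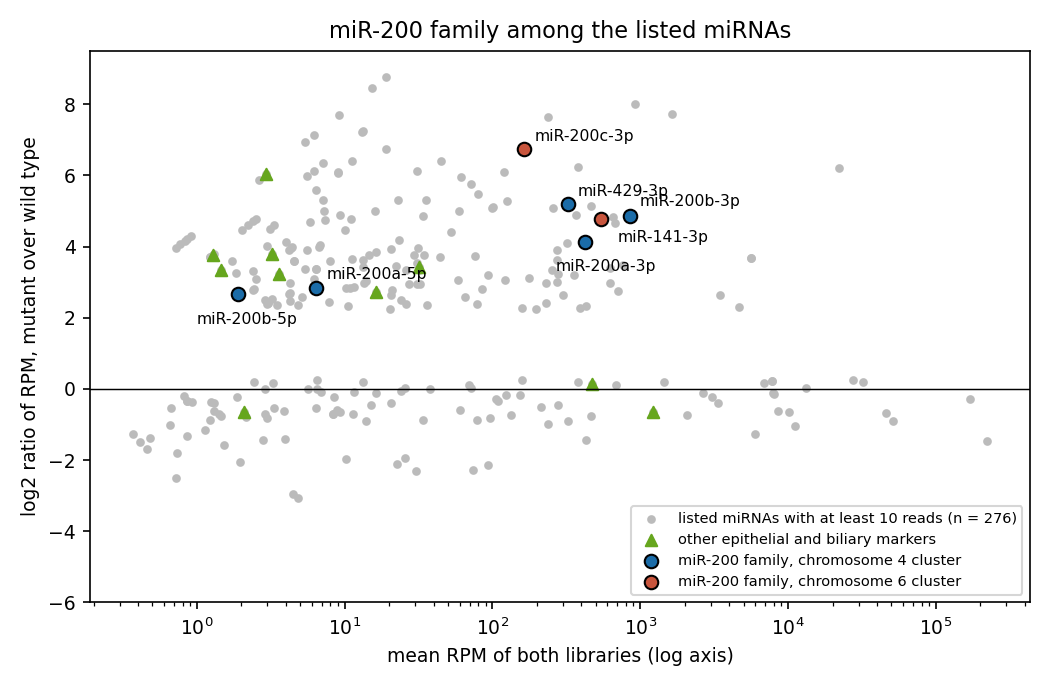
Log2 ratio of RPM, mutant over wild type, against mean RPM (log axis) for 276 listed miRNAs (grey), the family strands by cluster and other epithelial markers (triangles). The 3p strands lie between 4.12 and 6.74 and the 5p strands at 2.65 and 2.84, and the empty band above 0 reflects the listing limit.

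The other epithelial and biliary miRNAs were split between higher strands and strands within 2-fold. Of 10 names on that list 8 were listed, with 10 strands, and miR-182 and miR-96 were not. By RPM 7 of the 10 strands were at least 2-fold higher, a share near the 62.0% of all listed miRNAs, none was lower and 3 were neither. On the authors' scale the split was 7 higher and 3 lower, and with DESeq2 size factors it was 1 and 3. The listing leaves no strand within 2-fold on the authors' scale, so the 3 lower calls there are not a separate result. Of the 276 listed miRNAs with at least 10 reads, 171 were higher on the authors' scale and 105 lower. DESeq2 size factors make the ratios smaller still, so the 3 stay lower with them. The most abundant was miR-203-3p, known from skin and other stratified epithelia, which went from 1491 to 956 RPM, 1.56-fold lower in the mutant. miR-31-5p stood at 447 and 495 RPM, a ratio of 1.11 (interval 1.07 to 1.15), which turned lower on the authors' scale and with TMM, DESeq2 or top-miRNA-free scaling. miR-34c-5p, a p53-responsive miRNA of ciliated epithelia, had 62 and 1071 reads, 10.7-fold higher (8.27 to 14.0). The median ratio of the 10 strands was 9.73, against 6.83 over the 276 listed miRNAs. The summed list, carried by miR-203-3p and miR-31-5p, differed in direction from that median: it went from 1952 to 1562 RPM, 1.25-fold lower, with a ratio of 1.07 on the scale of summed listed counts.

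Listed markers of other liver cells also differed between the libraries, and their part in the family's increase was not tested. Each list sum holds listed strands only, so any name that was not listed is missing from it and the listing limit applies to it. The same holds for the odds ratios built on these sums. All 12 hepatocyte names were listed, with 18 strands, which together went from 703101 to 387262 RPM, 1.82-fold lower. By RPM 3 of the 18 were at least 2-fold lower, against 7.25% of all 276 listed miRNAs, and none was higher. The number lower was 18 on the authors' scale and with TMM or DESeq2 factors, 8 once the top miRNAs were left out and 1 on the scale of summed listed counts. The listing sets the 18: of the 105 miRNAs with at least 10 reads that were lower in the authors' table, none lies within 2-fold there. TMM and DESeq2 factors make the ratios smaller still. The share of 7.25% is by RPM. The summed ratio was 0.551 by RPM, 0.231 on the authors' scale and 0.0833 with DESeq2 size factors. The most abundant was miR-192-5p, 2.78-fold lower, followed by miR-22-3p (ratio 0.821, above 1 on the scale of summed listed counts) and miR-30a-5p (ratio 0.538). Of 7 stellate, mesenchymal and endothelial names 3 were listed, and miR-143, miR-145a, miR-126a and miR-10b were not. All 6 strands of the listed names were higher by RPM, against 62.0% of all listed miRNAs. With DESeq2 size factors 2 of the 6 were at least 2-fold higher, beside at most 86 of the 276 listed miRNAs. The sum over the 6 went from 966 to 12339 RPM, 12.8-fold. In it the identical counts of miR-199a-3p and miR-199b-3p (812.5 and 10396 RPM) were taken once. miR-199a-5p was 10.5-fold higher. Of 9 blood cell names 5 were listed, and miR-451a, miR-144, miR-486a and miR-146a were not. All 8 strands of the listed names were higher by RPM, beside the same 62.0%. With DESeq2 size factors 2 of the 8 were at least 2-fold higher, beside at most 86 of the 276 listed miRNAs. On that scale miR-150-5p and miR-142a-5p fell below equality. The sum over the 8 went from 1862 to 9999 RPM, 5.37-fold higher by RPM and 0.812 as a ratio with DESeq2 size factors. It was led by miR-142a-5p (4.95-fold), miR-142a-3p (7.81-fold) and miR-223-3p (10.1-fold). Set against the summed reads of a list in the same library, which needs no scaling, family reads had an odds ratio, mutant over wild type, of 49.5 for the hepatocyte list (interval 47.3 to 51.8). It was 34.1 for the other epithelial list (32.4 to 35.8), whose sum is mostly miR-203-3p and miR-31-5p, 5.07 for the blood cell list (4.84 to 5.33) and 2.13 for the stellate, mesenchymal and endothelial list (2.03 to 2.24).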

How the data were processed

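Per the labels' protocols, total liver RNA was made into libraries with the SMARTer smRNA-seq kit, and single-end reads were mapped to mm10 and to miRBase 22.1 and classed as 5p or 3p. The labels and the series text name different sequencers. cutadapt is named in the submitters' processing notes. The sources used here give neither the counting rule nor the authors' test, nor whether molecular identifiers were used. That kit tails RNA with adenines, so the last base of the 4 listed strands that end in A cannot be told from the tail; its effect was not tested.

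The deposited table holds the raw read counts of each mature miRNA and the RPM that the authors made from them. They also deposited log2 normalized values, equal to log2 of 1 plus the RPM times a factor of 1.46 (wild type) or 0.611 (mutant), and a signed fold score. Library totals were recovered as count over RPM and used for scaling, because the table holds part of each library. Each genotype has 1 library, so no test was run.

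RPM ratios have exact conditional binomial (Clopper-Pearson) intervals, RPM levels exact Poisson intervals, and odds ratios exact conditional intervals (SciPy 1.17.1). A miRNA was called higher or lower at 2-fold or more with an interval excluding equality and at least 10 reads over both libraries. PCR copies are not independent molecules. The calculations were tested on simulated Poisson counts, which hold neither PCR copies nor differences between animals. All listed family strands were named, with the 5 miRNAs nearest in ratio and the 3 most abundant strands of each marker list. Also named, after their values were seen, were miR-122-5p, miR-150-5p and the hairpins mir-29c, mir-199b and mir-582. The hairpins mir-26a, mir-29b, mir-199a, mir-299a and mir-299b were named to describe how hairpin counts were formed. The members, lists and tests were chosen with earlier results of these data known. Host genes come from GENCODE M21 on GRCm38. Alternatives were other scalings, including edgeR 4.0.16 TMM and DESeq2 1.42.0 size factors, pseudocounts, read minimums, a fold limit of 4 and leaving out strands.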

Additional observations from a re-analysis of the deposited data

How the results depend on the processing

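The summed family ratio of 27.3 was 36.4 on the scale of summed listed counts, 21.7 once the top miRNA was left out of each total, 11.4 with the authors' factors, 10.02 with TMM and 4.12 with DESeq2 size factors. It was 25.7 without miR-200c-3p. It moved by less than its counting interval without the most abundant strand or as the median of strands. The count of 7 higher strands was 5 with DESeq2 size factors and 6 with a minimum of 100 reads, and 7 under the other 4 scalings. A fold limit of 4 or no read minimum could not change the count of 7, since listed increases begin at 4.78-fold by RPM and every family strand has over 10 reads. miR-200b-5p turned to 0.951 with DESeq2 size factors, and no other strand ratio fell below 1 under any scaling or pseudocount. The cluster odds ratio of 0.755 was 0.207 without the most abundant strand of each cluster, where miR-200c-3p stands alone for chromosome 6, 0.237 without miR-141-3p, 0.661 without miR-200b-3p, 0.897 without miR-200a-3p and 0.917 without miR-200c-3p. It was 0.765 with 3p strands only, and moved by less than its interval without any 1 of the other 3 strands. The seed group odds ratio of 1.53 was 2.71 without the most abundant strand of each group, 1.76 on chromosome 4 alone and 1.39 without miR-200c-3p. The 5p against 3p odds ratio of 0.294 for both hairpins summed stayed between 0.218 and 0.414 under its alternatives. Leaving out single named strands and taking each hairpin alone were chosen after seeing the data. The scaling moves all strands by the same factor, so the ratios within a library do not depend on it. Depth limits miR-200b-5p, miR-200a-5p and miR-200c-3p in the wild type. No paired analysis was possible because each genotype has 1 library.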
